A study of Pinus pinaster with 36 samples.

Results

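The transcripts described here are 200 maritime pine (Pinus pinaster) transcripts that were read in both organs of the shoot and hardly in roots. They were chosen on the organ means of these libraries, in CPM, the count scaled to a library total of 1e+06. Needle and stem means had to lie under 500 CPM and within 4-fold of each other, and the root mean had to lie under 1/32 of both. Of 224081 identifiers counted in the series, 872 met these limits, and the 200 with the highest smaller mean of needles and stem were kept. Organ differences are therefore a description of the choice and carry no test, while the responses to nitrogen and CO2 within an organ played no part in it.

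RNA was sequenced from needles, stem and roots of seedlings of the Segura-Alcaraz provenance, 2 months old at harvest. Seedlings had received 40 mL a week of either 8 mM NH4Cl (ammonium) or 8 mM KNO3 (nitrate) for 1 month, at either 720 or 400 ppm CO2. The groups were ammonium at 720 ppm, ammonium at 400 ppm, nitrate at 720 ppm and nitrate at 400 ppm, each with 3 pools of 12 seedlings, and the 3 organs of a pool were taken as separate libraries, which gave 36 libraries in 12 groups. No group was left without added nitrogen, the ammonium and nitrate salts also differed in chloride and potassium, and the labels do not say how many chambers were used, so nitrogen form and counter-ion, and CO2 level and chamber, cannot be told apart. A pool averages its seedlings, and fewer cells of a type and less RNA per cell cannot be told apart in such samples.

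Needles are the main photosynthetic organ of a pine seedling, and the young stem also carries green tissue beneath its surface together with vascular tissue. Roots grow in the dark, take up ammonium and nitrate and hold plastids that do not photosynthesise. Transcripts of the light-harvesting and carbon-fixing machinery, of leaf-type plastids and of the waxy cuticle are typical of the shoot in plants. The identifiers of this series are not paired with gene names in the files, so no role is given to any of the 200, and the labelled organs could not be checked against named marker genes. By level, each of the 36 libraries was closest to another library of its own organ.

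Library totals ran from 73414247 to 134836160 counts. The share of counts above 20 that were even numbers ran from 52.5 to 75.4%, and it was over 65% in 4 needle and 3 stem libraries, called low-complexity libraries below. Among needles they were replicate 3 of ammonium at 720 ppm, replicate 2 of ammonium at 400 ppm and the first and second replicates of nitrate at 400 ppm. Among stems the first and second replicates of ammonium at 400 ppm and replicate 1 of nitrate at 720 ppm belonged to them. The name rests on the share of even counts alone, and the sources used here do not state the cause of that share. Between 11.1 and 58.5% of all identifiers were at 0 in a library.

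Rank 1 by the smaller shoot mean was PpCO2_93743, which also had the highest root mean of the 200. Its 12 needle libraries ran from 74.3 to 113 CPM with a median of 92.1 CPM. Its 12 stem libraries ran from 39.2 to 82.8 CPM with a median of 51.5 CPM. Its 12 root libraries ran from 0.339 to 2.09 CPM, so no root library came near any shoot library. Its mean was 90.5 ± 12.7 CPM in needles, 55.5 ± 14.0 CPM in stem and 1.03 ± 0.529 CPM in roots (SD, n = 12 each). At the middle of the ranking, PpCO2_168898 had a mean of 6.19 CPM in needles and 2.23 CPM in stem, with 8 counts over all root libraries and 9 of them at 0. At the foot of the list, PpCO2_7534 had a mean of 1.97 CPM in needles and 0.567 CPM in stem with 2 root counts. The first transcript left out, PpCO2_63598, had means of 1.90 and 0.564 CPM in needles and stem, so the end of the list is a matter of rank and marks no gap.

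Over the 200, needle means ran from 0.597 to 169 CPM with a median of 4.41 CPM, and stem means from 0.567 to 83.3 CPM with a median of 2.57 CPM. Root means ran from 0.00151 to 1.03 CPM with a median of 0.0345 CPM. Only 24 members reached 10 CPM in both shoot organs, and 46 stayed under 1 CPM in one of them. The 10 highest-ranked members held 36.7% of the members' counts in needles and 36.1% in stem, and the 50 highest-ranked held 76.1 and 74.3%. CPM takes no account of transcript length, which the files do not give, so the order of members is one of read share, not of molecules.

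**Figure D1:**
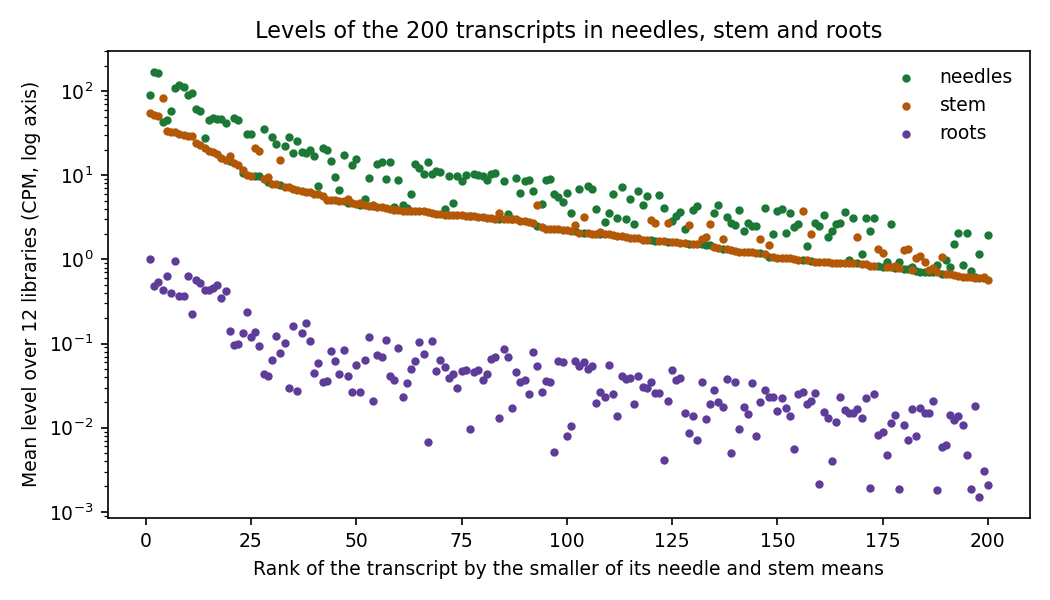
Mean level in CPM (log axis) of each of the 200 transcripts in needles, stem and roots against its rank by the smaller of the needle and stem means, with 1 point per transcript and organ over 12 libraries. Root means lie between 0.00151 and 1.03 CPM, under every needle or stem mean of the same transcript.

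The word absent, by which the group is known, does not hold for the counts of these transcripts in root libraries. All 200 had counts in root libraries, from 2 to 1129 over the 12 libraries with a median of 35.5, and 177 of them had 10 or more. At 3 counts or fewer were 8 members, whereas 37 had 100 or more. Counts appeared in all 12 root libraries for 32 members, and 81 were at 0 in 6 or more. A floor of 3 counts corresponded to 0.0249 to 0.0394 CPM in a single root library and to 0.00283 CPM over all of them, for counting error only. The transcripts are therefore called shoot transcripts low in roots. Whether the reads counted in root libraries came from root RNA was not tested.

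The distance from roots varied widely among members. In the lower of the shoot organs, 59 members were over 100-fold above roots and 88 lay between 32- and 64-fold. The highest root mean relative to the mean of the shoot organs was that of PpCO2_96581, with means of 0.614 CPM in needles, 0.601 CPM in stem and 0.0179 CPM in roots. The lowest was that of PpCO2_31043, with means of 14.3 CPM in needles, 3.68 CPM in stem and 0.00669 CPM in roots, where it had 7 counts. For 174 members every shoot library stood above every root library, which the root limit of 1/32 makes likely. Root means followed the shoot means over the 200 members, with a rank correlation of 0.81 with needles and 0.83 with stem. These points share libraries and were all chosen by a ratio of these means, so the correlations describe the list alone.

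As a description, 200 transcripts were also chosen by the same limits on 2 replicates of each group and read in the third. The limits were set with earlier results of these data known, so the third replicate was no independent check. The transcripts so chosen shared 174, 178 and 180 with the list, for replicates 1, 2 and 3 held out. In the replicate held out, 161, 155 and 175 of the 200 so chosen still had a root mean under 1/32 of both shoot organs. Under 1/8 were 198, 199 and 197, and all 200 were higher in needles and in stem than in roots each time.

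Within the shoot, most of the members leaned to needles. The needle mean was above the stem mean for 158 and below it for 42, and the ratio of needles to stem had a median of 2.40. More than 2-fold higher in needles were 116 members, 4 were more than 2-fold higher in stem, and 80 lay within 2-fold. All 12 needle libraries stood above all 12 stem libraries for 90 members, and the reverse held for 5. No share over all transcripts stands beside these counts, so they describe the list alone. On CPM scaled by the trimmed mean of M values (TMM), which sets libraries level on the transcripts they share, 179 members were higher in needles and the median ratio was 3.45, so the size of the lean depends on the scale while its main direction does not. The most needle-leaning member was PpCO2_89872, with 3.62 CPM in needles and 0.912 CPM in stem. The most stem-leaning was PpCO2_115433, with 0.982 CPM in needles and 3.75 CPM in stem. Both sit at the 4-fold limit of the rule, and transcripts with a stronger lean were left out by it.

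Neighbouring identifier numbers recurred in the list. When members no more than 3 numbers apart were joined, the 200 fell into 96 runs, of which 39 had 2 or more members and together held 143. The longest run held all 14 numbers from 123575 to 123588, with needle to stem ratios from 2.19 to 3.21. Runs of 8 members lay at 8557 to 8565, at 168898 to 168908 and at 175975 to 175983, and the last had ratios from 0.665 to 1.22. Levels of members of a run moved together from library to library, with a median correlation of 0.68 over needle libraries and 0.65 over stem libraries (305 pairs), against 0.02 and 0.16 between members of different runs (19595 pairs). The files do not say what neighbouring numbers share, and reads of near-identical sequences could be split among them, so members of a run are not independent and the main counts below are also given by runs.

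**Figure D2:**
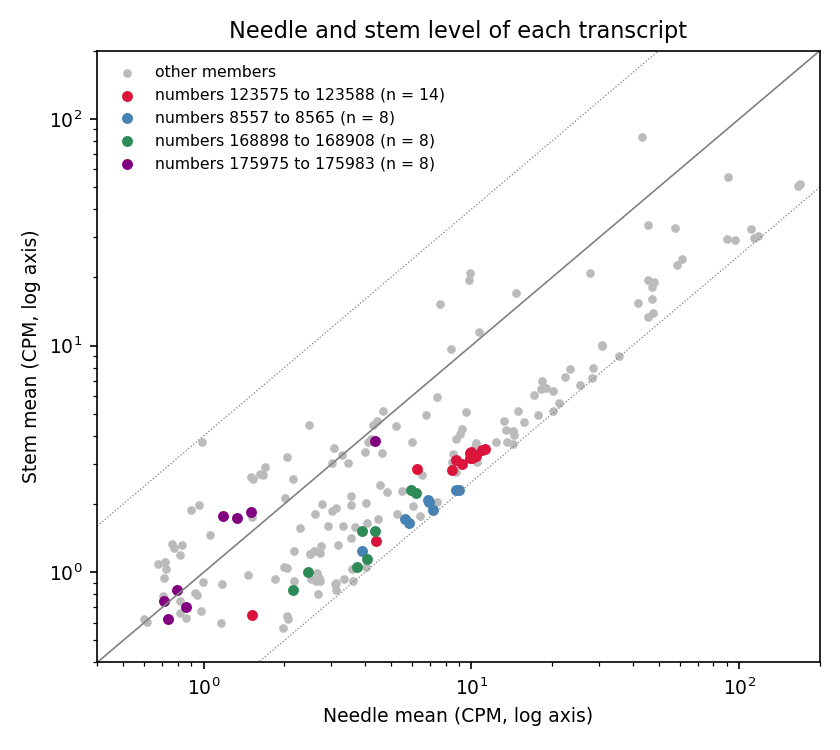
Stem mean against needle mean (CPM, log axes) with 1 point per transcript. The solid line marks equal levels, the dotted lines the 4-fold limits of the rule, and colours the 4 longest runs of neighbouring numbers, of which the run from 175975 to 175983 lies near the line of equal levels and the other 3 lie towards needles.

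The members were about as steady in needles as other transcripts within their range of level and less steady in stem. The coefficient of variation over the 12 libraries of an organ had a median of 21.7% in needles, against 21.2% for the 64511 transcripts within the members' range of needle means. In stem it had a median of 31.1%, against 24.7% for the 75619 transcripts within the members' range of stem means. This spread includes differences between treatments. The other transcripts were not matched to the members in level within the range. Without low-complexity libraries the members' median was 19.2% in needles and 27.0% in stem. Within groups, the biological coefficient of variation fitted by edgeR had a median of 19.6% for members in needles and 33.9% in stem. It was 21.3 and 28.3% for transcripts within the members' range of level. In needles PpCO2_31045 varied least, at 28.2 ± 2.04 CPM, and PpCO2_29311 varied most, at 0.776 ± 0.706 CPM (SD, n = 12). In stem PpCO2_113193 varied least, at 19.4 ± 2.15 CPM, and PpCO2_169890 varied most, at 0.672 ± 0.793 CPM (SD, n = 12). The steadiest were thus above 10 CPM and the least steady under 1 CPM. At least 1 stem library was at 0 for 22 members and at least 1 needle library for 5.

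Summed over the 200, the level was close to constant in needles and differed with CO2 in stem. In needles the sum was 2733 ± 112 CPM over all libraries (SD, n = 12), with 2728 ± 138 CPM at 720 ppm and 2737 ± 92.2 CPM at 400 ppm (SD, n = 6 each). In stem the sum at 720 ppm ran from 1004 to 1150 CPM with a median of 1041 CPM, and at 400 ppm from 1187 to 1480 CPM with a median of 1291 CPM. All 6 stem libraries at 720 ppm lay below all 6 at 400 ppm. With ammonium the stem sum was 1047 ± 53.4 CPM at 720 ppm and 1305 ± 126 CPM at 400 ppm, and with nitrate it was 1077 ± 63.2 CPM at 720 ppm and 1343 ± 120 CPM at 400 ppm (SD, n = 3 each). On TMM-scaled CPM the ranges in stem were 872 to 1018 at 720 ppm and 1039 to 1275 at 400 ppm, which again did not overlap. In roots the sum was 17.0 ± 4.77 CPM (SD, n = 12), and its lowest and highest libraries, at 9.22 and 23.7 CPM, were both at 720 ppm.

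**Figure D3:**
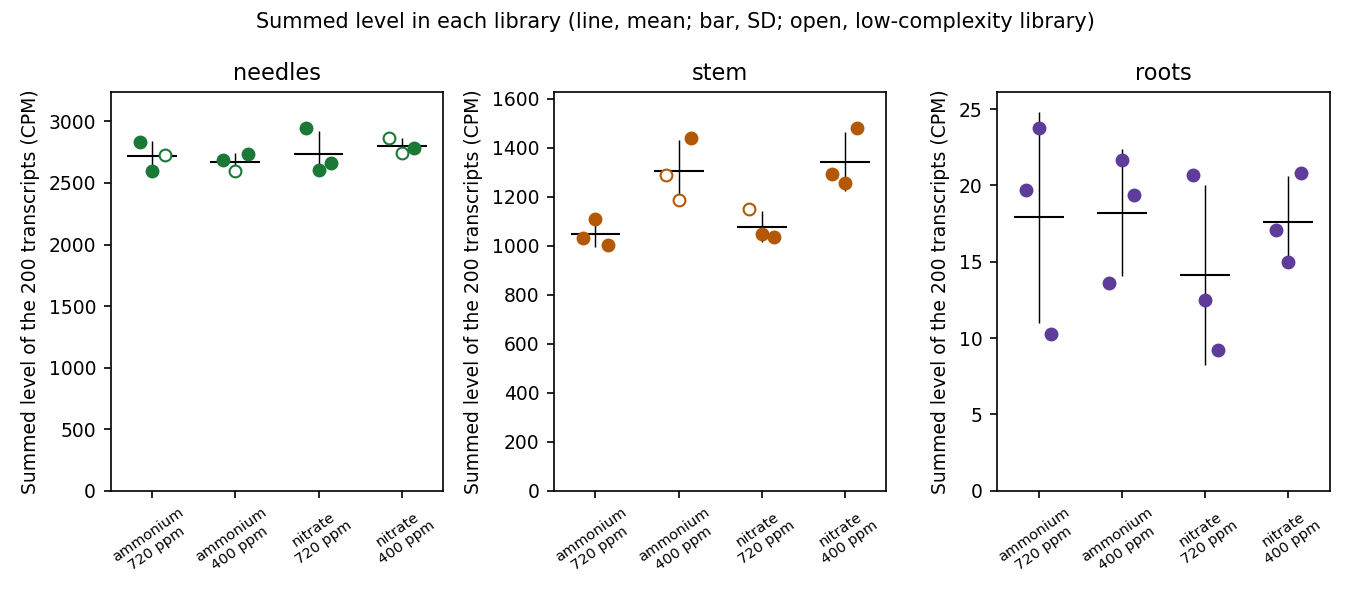
Summed level of the 200 transcripts (CPM, axes from 0) in each library by organ and group, with a line for the group mean, a bar for 1 SD (n = 3) and open circles for low-complexity libraries. Stem libraries at 720 ppm lie between 1004 and 1150 CPM and those at 400 ppm between 1187 and 1480 CPM, while in needles the ranges of the CO2 levels overlap.

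The comparison of CO2 levels in stem asked which transcripts differ in seedlings grown at 720 ppm from those grown at 400 ppm, over both nitrogen forms. Most of the 200 had a lower level at 720 ppm, by a modest amount, and none passed the test on its own. The log2 change was negative for 176 members and positive for 24, with a median of -0.33 and quartiles of -0.54 and -0.16. Over all 137689 transcripts tested in stem, 50.1% were negative and the median was -0.00091. No member had an adjusted p under 0.05 (edgeR's quasi-likelihood test, Benjamini-Hochberg adjustment over all transcripts tested), and the share called among all tested was 0%. At an unadjusted p under 0.05 were 51 members, all lower at 720 ppm, which is 25.5% of the list, against 2.5% of all transcripts tested in that direction. In either direction the share was 5.46% of all transcripts and 7.82% of those within the members' range of level. DESeq2's Wald test called 17 members from 12 runs, all lower and all among the 51, out of 102 members to which it gave an adjusted p, its own filter leaving 98 without one. It called 0.344% of all transcripts lower, counted over all tested whether or not they had an adjusted p, as in the other DESeq2 shares below. For 8 members, or 4%, every library at 720 ppm lay below every library at 400 ppm, against 0.22% of all transcripts tested. Counted by runs, 81 of 96 had a negative median, and the 51 members came from 29 runs. The run from 123575 to 123588 had log2 changes from -0.60 to -0.32, and 10 of its 14 members were at an unadjusted p under 0.05.

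The smallest p in this comparison belonged to PpCO2_93941. In stem it had 6.09 to 9.48 CPM with a median of 6.76 CPM at 720 ppm, and 11.7 to 21.3 CPM with a median of 14.7 CPM at 400 ppm. The groups of 6 libraries did not overlap, within either nitrogen form or over both. Its log2 change was -1.15 (SE 0.150), with an unadjusted p of 1.76e-06 and an adjusted p of 0.175 in edgeR. The adjusted p was 0.00144 without the low-complexity libraries, 0.00222 with no filter on low counts and 1.1e-07 in DESeq2, so the call depends on the test and on which libraries enter it. It was 0.0367 without ammonium 400 ppm replicate 2 and 0.0129 without ammonium 400 ppm replicate 3. Its neighbours in number, PpCO2_93939 and PpCO2_93940, chosen after their values were seen, had log2 changes of -0.97 (SE 0.146) and -1.02 (SE 0.164) and an adjusted p of 0.175 each in edgeR. DESeq2 called both, with an adjusted p of 1.39e-05 for PpCO2_93939 and 5.47e-05 for PpCO2_93940. In the other direction the smallest p belonged to PpCO2_125747, with 30.7 to 47.3 CPM at 720 ppm and 11.9 to 35.1 CPM at 400 ppm. Its log2 change was 0.43 (SE 0.245), with an adjusted p of 1.0 in edgeR.

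Another list had lower values at 720 ppm in stem over both nitrogen forms. A list of 1560 needle-enriched transcripts outside the 200, with a needle mean of at least 1 CPM and more than 8-fold above stem and roots, took 0.368 to 0.748% of stem counts at 720 ppm with a median of 0.462%, and 0.571 to 1.05% at 400 ppm with a median of 0.684%. Of its 1177 members tested in stem, 940 had a negative log2 change with CO2, or 79.9%, with a median of -0.64. Read by nitrogen form, the list and the 200 differed in part. With ammonium the list took 0.368 to 0.748% at 720 ppm and 0.571 to 0.724% at 400 ppm. These overlapped through replicate 2 at 720 ppm alone, at 0.748%, since replicates 1 and 3 had 0.368 and 0.481%. With nitrate it took 0.409 to 0.488% at 720 ppm and 0.621 to 1.05% at 400 ppm, which did not overlap. The change with ammonium minus that with nitrate was positive for 1057 of the 1177, with a median of 1.44 on the log2 scale. Over all transcripts tested in stem, 60.3% were positive, with a median of 0.15. The median was 0.03 for the 200, whose sum was lower at 720 ppm with either form. Without the 3 low-complexity stem libraries the median went to 0.05 over all transcripts tested and to -0.04 for the 200. For the needle-enriched list it was not computed without them. In needles the same list took 7.77 to 8.58% of counts at 720 ppm and 7.31 to 8.02% at 400 ppm. The transcripts that met the limits but were not kept had a median of -0.28, with 147 of 240 tested negative. The part of a varying needle-type share of stem RNA in the result was not tested. Read by lean, the median stem log2 change was -0.34 for the 63 members over 3-fold higher in needles, of which 60 were negative, and -0.32 for the 53 members 2- to 3-fold higher in needles, of which 47 were negative. It was -0.54 for the 42 members up to 2-fold higher in needles, of which 35 were negative, and -0.17 for the 42 members higher in stem, of which 34 were negative. Most members were negative in each class of lean. The median change was smallest in the class higher in stem, at -0.17, and largest in that up to 2-fold higher in needles, at -0.54. The rule holds all classes within 4-fold, and a link between lean and change was not tested.

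**Figure D4:**
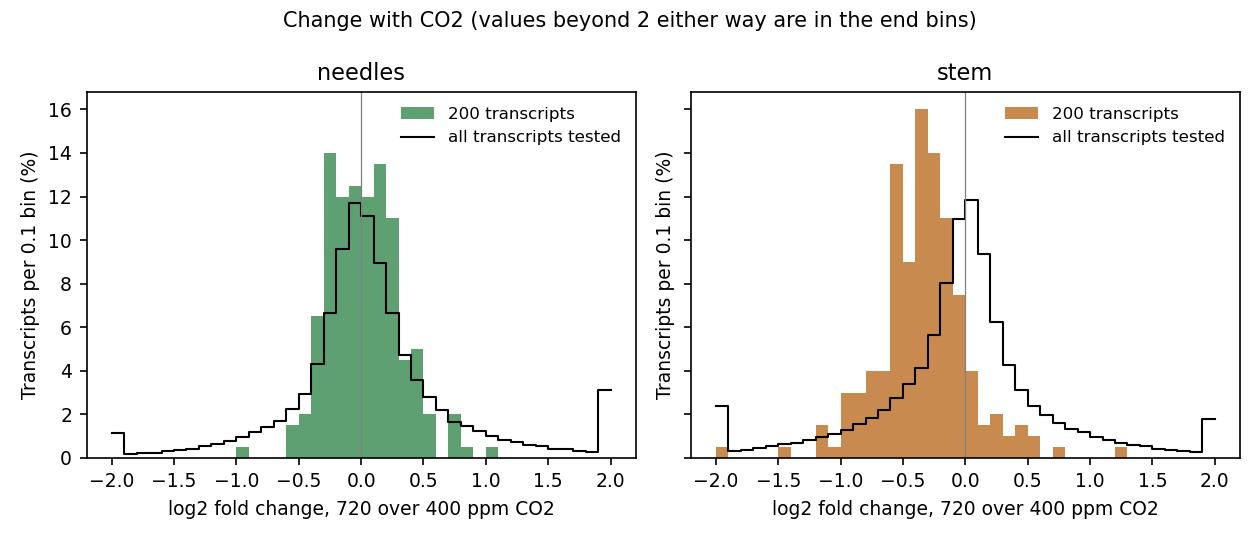
Share of transcripts (%) per bin of 0.1 in the log2 change at 720 over 400 ppm CO2, in needles and in stem, for the 200 transcripts (filled) and for all transcripts tested in the organ (line). In stem the filled bars centre on a median of -0.33 and the line on -0.00091, while in needles both centre near 0.

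In needles edgeR called 2 members higher at 720 than at 400 ppm over both nitrogen forms and none lower, and the list as a whole was centred near 0. The share called higher among all 117123 transcripts tested in needles was 0.508%, and the share called lower was 0.0529%. PpCO2_23586 had 32.2 to 54.7 CPM with a median of 43.9 CPM at 720 ppm, and 20.4 to 35.2 CPM with a median of 27.9 CPM at 400 ppm. With ammonium, and with nitrate, its 3 libraries at 720 ppm all lay above its 3 at 400 ppm, and only over both nitrogen forms did the ranges overlap. Its log2 change was 0.80 (SE 0.0773) with an adjusted p of 0.00188 in edgeR. PpCO2_125747 had 55.8 to 71.4 CPM with a median of 62.8 CPM at 720 ppm, and 40.4 to 60.5 CPM with a median of 55.7 CPM at 400 ppm, so its ranges overlapped. With ammonium it had 57.4 ± 1.95 CPM at 720 ppm and 57.3 ± 3.41 CPM at 400 ppm, and with nitrate 69.5 ± 3.03 CPM at 720 ppm and 47.1 ± 10.9 CPM at 400 ppm (SD, n = 3 each), so the means were apart with nitrate alone. Its log2 change was 0.40 (SE 0.0827) with an adjusted p of 0.0457 in edgeR. This call ended, with an adjusted p between 0.0508 and 0.122, when any 1 of 11 of the 12 needle libraries was left out, the exception being nitrate 400 ppm replicate 2. It also ended with DESeq2 size factors, at 0.0646. The lower value with the smallest p was that of PpCO2_123582, with 7.04 to 10.1 CPM at 720 ppm and 9.66 to 13.6 CPM at 400 ppm, a log2 change of -0.37 (SE 0.0953) and an adjusted p of 0.108 in edgeR. DESeq2 called it lower, with an adjusted p of 0.0069.

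Over the list, 102 members were positive and 98 negative in needles with CO2, with a median of 0.01, against 52.5% positive among all transcripts tested. An unadjusted p under 0.05 was reached by 42 members, 23 higher and 19 lower, or 21%, against 10.4% of all transcripts tested and 15.4% of the 64359 tested transcripts within the members' range of level. The 42 came from 28 of the 96 runs. DESeq2 called 14 members from 11 runs, out of 174 with an adjusted p, against 2.88% of all transcripts. Of these, 6 were higher and 8 lower, and 4 of the 8 belonged to the run from 123575 to 123588.

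In the comparison of nitrogen forms in needles, ammonium against nitrate over both CO2 levels, edgeR called PpCO2_23586 higher and no other member. The share it called higher among all transcripts tested was 0.226%, and the share called lower was 0.148%. DESeq2 called 5 members, 3 higher and 2 lower, against 1526 of all 117123 transcripts tested. PpCO2_23586 had 31.9 to 54.7 CPM with a median of 41.1 CPM with ammonium, and 20.4 to 41.0 CPM with a median of 28.1 CPM with nitrate. Its log2 change was 0.61 (SE 0.0771) with an adjusted p of 0.00141 in edgeR. Its libraries were highest with ammonium at 720 ppm, at 46.9, 54.2 and 54.7 CPM, and lowest with nitrate at 400 ppm, at 20.4, 24.0 and 20.5 CPM. Between them, ammonium at 400 ppm gave 31.9, 35.2 and 33.2 CPM and nitrate at 720 ppm gave 41.0, 32.2 and 34.0 CPM. The most stem-leaning member, PpCO2_115433, had the smallest p in the other direction, with 0.341 to 1.00 CPM with ammonium and 0.724 to 1.64 CPM with nitrate. Its log2 change was -1.32 (SE 0.285) with an adjusted p of 0.0721 in edgeR, and the adjusted p was 0.00176 in DESeq2 and 0.0394 without nitrate 400 ppm replicate 3. Among the 200, 36 were at an unadjusted p under 0.05, 19 higher and 17 lower, or 18%, against 7% of all transcripts tested and 9.64% of those within the members' range of level, and they came from 28 runs.

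**Figure D5:**
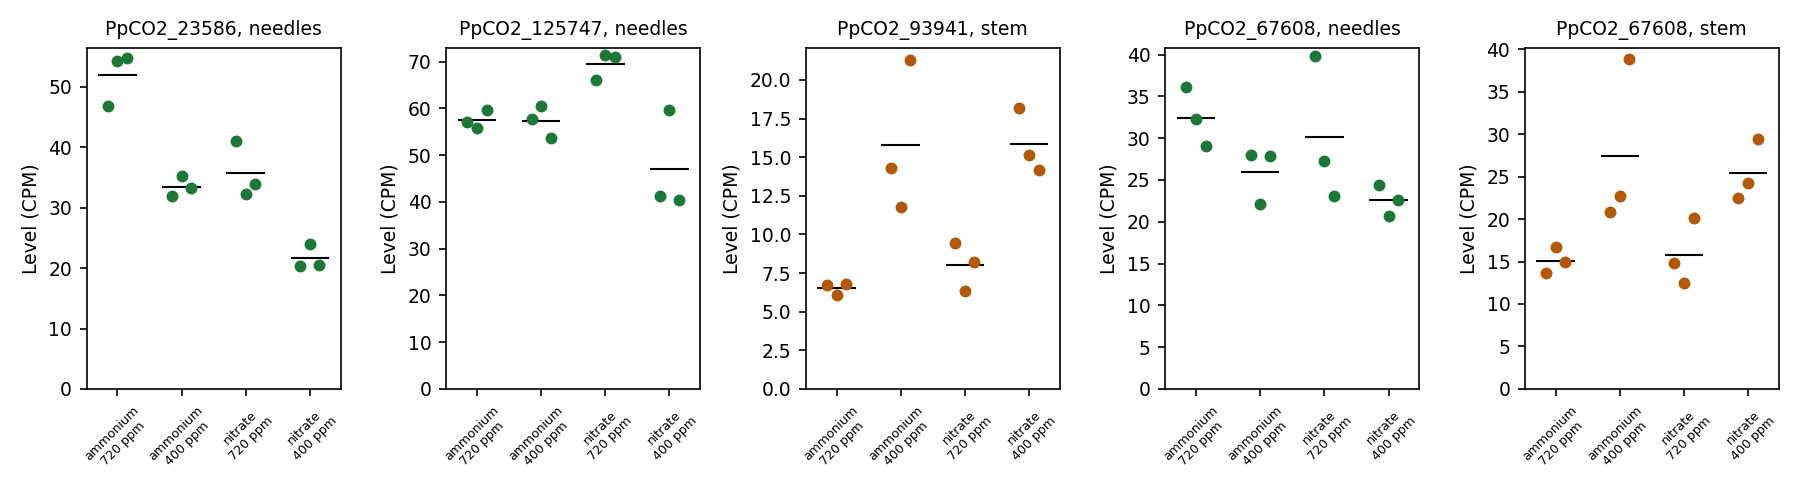
Level (CPM, axes from 0) of PpCO2_23586 and PpCO2_125747 in needles, of PpCO2_93941 in stem and of PpCO2_67608 in needles and stem, with 1 point per library and a line for the mean of the 3 libraries of a group. PpCO2_93941 lies between 6.09 and 9.48 CPM at 720 ppm and between 11.7 and 21.3 CPM at 400 ppm, with either nitrogen form.

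In stem, the nitrogen forms set no member apart. No member was called, against 0.28% of all transcripts tested, and 11 were at an unadjusted p under 0.05, or 5.5%, against 5.2% of all. DESeq2 called none either, against 0.969% of all. The log2 change was negative for 130 members, with a median of -0.07, against 54% of all transcripts tested. PpCO2_65206 had 2.05 to 6.89 CPM with ammonium and 1.07 to 4.03 CPM with nitrate, a log2 change of 0.98 (SE 0.320) and an adjusted p of 0.511 in edgeR. Without the 3 low-complexity stem libraries its log2 change was 1.52 and its adjusted p 0.00453. PpCO2_16726 had 1.70 to 6.09 CPM with ammonium and 1.84 to 16.3 CPM with nitrate, a log2 change of -0.87 (SE 0.313) and an adjusted p of 0.675 in edgeR.

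Whether the CO2 response differed between nitrogen forms was tested as the change with ammonium minus that with nitrate. No member was called in needles or in stem by edgeR or by DESeq2, and the share called among all transcripts tested was 0% in both by edgeR, and 0.035% in needles and 0.0341% in stem by DESeq2. In needles 8 members were at an unadjusted p under 0.05, or 4%, against 3.7% of all, and in stem 5 were, or 2.5%, against 3.08%. In needles the smallest p values belonged to PpCO2_125747 and PpCO2_47417. The levels of PpCO2_125747 by group are given above, and its difference of responses was -0.56 on the log2 scale (SE 0.165), with an adjusted p of 1.0 in edgeR. PpCO2_47417 had 11.1 ± 1.12 CPM at 720 ppm and 7.95 ± 1.43 CPM at 400 ppm with ammonium, and 7.85 ± 1.52 CPM at 720 ppm and 9.40 ± 0.123 CPM at 400 ppm with nitrate (SD, n = 3 each). Its difference was 0.76 (SE 0.227), with an adjusted p of 1.0 in edgeR. In stem PpCO2_16726 had a difference of -2.14 (SE 0.628) and PpCO2_73705 one of 0.58 (SE 0.220), with an adjusted p of 1.0 each in edgeR.

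The CO2 response in needles minus that in stem was tested in a fit of the 24 shoot libraries, taken as independent of each other. Its values leaned to needles for most members, and none was called, against 0.00133% of all 150648 transcripts tested. The difference was positive for 171 members and negative for 29, with a median of 0.34, while 57.1% of all transcripts tested were positive with a median of 0.10. With medians of 0.01 in needles and -0.33 in stem from the same libraries, these values mostly restate the lower stem levels. At an unadjusted p under 0.05 were 48 members, all positive, or 24%, against 5.76% of all transcripts in that direction, and 29 without replicate 3 of each group. In either direction the share was 7.76% of all transcripts and 9.72% of those within the members' range of level. By runs, 84 of 96 had a positive median, and the 48 members came from 34 runs. DESeq2 called 18 members from 14 runs, all positive, out of 78 with an adjusted p, against 0.864% of all transcripts called positive by it. With the pool of seedlings as a block, since needles and stem of a pool come from the same seedlings, edgeR called 3 members, all positive, against 0.0697% of all transcripts. The member with the smallest of these adjusted p, 0.0225, was PpCO2_133570, and it was chosen for mention after its values were seen. It had 6.23 to 9.71 CPM at 720 ppm and 5.57 to 7.83 CPM at 400 ppm in needles, and 2.51 to 5.56 CPM at 720 ppm and 5.42 to 14.2 CPM at 400 ppm in stem. By sign, 86 members were positive in needles and negative in stem, 90 negative in both, 16 positive in both, and 8 negative in needles and positive in stem.

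Without the block, the member with the smallest p was PpCO2_67608. In needles it had 23.1 to 39.9 CPM with a median of 30.6 CPM at 720 ppm, and 20.7 to 28.0 CPM with a median of 23.5 CPM at 400 ppm. In stem it had 12.5 to 20.1 CPM with a median of 14.8 CPM at 720 ppm, and 20.8 to 38.8 CPM with a median of 23.5 CPM at 400 ppm. The stem ranges did not overlap and the needle ranges did. The difference of its responses was 1.30 on the log2 scale (SE 0.241), with an adjusted p of 0.0908 in edgeR, 3.9e-05 in DESeq2 and 0.0306 in edgeR without replicate 3. The smallest p in the other direction was that of PpCO2_153950, with a difference of -0.65 (SE 0.376) and an adjusted p of 0.747 in edgeR.

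For nitrogen, the response in needles minus that in stem gave no call among the 200, against 0.0153% of all transcripts tested, and 5 members at an unadjusted p under 0.05, or 2.5%, against 4.84% of all. PpCO2_115433 had 2.09 to 6.32 CPM with ammonium and 1.69 to 4.96 CPM with nitrate in stem, beside the needle levels given above. The difference of its responses was -1.65 (SE 0.341) with an adjusted p of 0.144 in edgeR, and DESeq2 called it alone among the 200, at 0.00305, against 0.18% of all transcripts. PpCO2_144432 had 7.26 to 15.8 CPM with ammonium and 4.96 to 10.1 CPM with nitrate in needles, and 6.64 to 12.2 CPM with ammonium and 7.38 to 15.9 CPM with nitrate in stem. The difference of its responses was 0.83 (SE 0.265) with an adjusted p of 0.781 in edgeR.

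In roots, only 45 of the 200 passed the filter on low counts, and a member may have passed through 1 group alone, so no count over these 45 speaks for the list. None was called for nitrogen form, where 16.4% of all 156123 transcripts tested were called, for CO2, where 0.603% were, or for the difference of CO2 responses, where 0.462% were. An unadjusted p under 0.05 was reached by 2, 2 and 1 of the 45 in these comparisons, against 29, 9.76 and 6.74% of all. DESeq2 called 1 member for nitrogen form, where it called 21.1% of all, and none for CO2 or for the difference of CO2 responses, where it called 2.05 and 1.27% of all. PpCO2_212598 had 18 counts with ammonium, with 3 of 6 libraries at 0, and 97 counts with nitrate, with no library at 0. In CPM it ran from 0 to 0.127 with ammonium and from 0.0773 to 0.348 with nitrate. Its fitted log2 change was -2.86 (SE 0.988) with an adjusted p of 0.0658 in edgeR, 0.0149 in DESeq2 and 0.0413 without ammonium 400 ppm replicate 3. PpCO2_74243 had 0.291 to 0.763 CPM with ammonium and 0.103 to 0.646 CPM with nitrate, a log2 change of 0.70 (SE 0.367) and an adjusted p of 0.233 in edgeR. The same member had 0.103 to 0.763 CPM at 720 ppm and 0.392 to 0.745 CPM at 400 ppm, a log2 change of -0.83 (SE 0.368) and an adjusted p of 0.482 in edgeR. PpCO2_86196 had 61 counts at 720 ppm and 16 at 400 ppm, with an adjusted p of 0.507 in edgeR. It had no count in the 3 libraries of ammonium at 400 ppm, so its fitted difference of CO2 responses is no bound. PpCO2_212598 and PpCO2_86196 may each have passed the filter through the side where it was higher, so their p-values give no support for a difference. The difference of CO2 responses of PpCO2_165679 was -2.41 (SE 1.54), with an adjusted p of 0.869 in edgeR.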

How the data were processed

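Whole-number counts per transcript identifier were deposited by the authors in 1 table of 36 libraries, unnormalised. Libraries were sequenced as paired reads, and bcl2fastq is named in the submitters' processing notes; aligner, counter and transcript build are not given in the sources used here. The treatment text in the labels describes a different root experiment, so groups follow titles, characteristics and the series' design.

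CPM was computed from column totals. edgeR 4.0.16 (R 4.3.3) fitted each organ's 12 libraries with 1 mean per group (filterByExpr, TMM, robust quasi-likelihood test, Benjamini-Hochberg adjustment, threshold 0.05), and needles with stem together for the difference of responses. SE is the log2 change over the root of F. DESeq2 1.42.0, DESeq2 size factors, no filter, leaving out libraries and replicate blocks were alternatives. The code was tested on simulated data.

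Within an organ, the p-values measure the spread between pools. Needle and stem libraries share pools by design, and the main fit of both together took them as independent. Only the pool block took account of the shared pools. Same-pool deviations correlated at 0.039 to 0.197 over 12 pairs. Replicate pairs differed beyond counting noise, with chi-square per degree of freedom of 8.60 to 54.7.

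Members and lists were chosen with earlier results of these data known. Named transcripts are ranks 1, 100, 200 and 201, the extremes of root ratio, lean and variation, up to 2 called in each direction per comparison or, where none is called, the one with the smallest p. No member was at 0 in all root libraries. Sign counts were added after seeing the data.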

Additional observations from a re-analysis of the deposited data

Results flagged for a closer look

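Of 52 groups of 6 libraries tested for a library that stands apart (Dixon's test, critical value 0.625), 2 had one; chance gives about 1 in 20 groups. PpCO2_115433 had 0.724 CPM in nitrate 400 ppm replicate 3 of needles, against 1.37 to 1.64 CPM in the other 5 nitrate libraries. PpCO2_144432 had 15.8 CPM in ammonium 720 ppm replicate 3 of needles, a low-complexity library, against 7.26 to 9.43 CPM in the other 5 ammonium libraries.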

How the results depend on the processing

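The choice of members depended on the rule. Of the 200, 118 were also chosen on TMM-scaled CPM, 90 with a root limit of 1/16, 112 with 1/64 and 80 with needles and stem within 2-fold. Organ medians kept 168, leaving out low-complexity libraries kept 185, and leaving out a replicate kept 174 to 180.

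Members called moved as follows, where 1 of 438 means 1 member among 438 transcripts called. Ranges without a library or replicate give members alone. With no filter, 182951 transcripts were tested in needles and 199314 in stem. Without low-complexity libraries, 140591 were tested in needles, 163645 in stem and 172831 in both together. DESeq2, its size factors and the blocks had as many as the main fit. Needles, nitrogen (1 of 438) gave 5 of 1526 in DESeq2 and 2 of 517 with the replicate block. It gave 3 of 397 without low-complexity libraries and 1 to 2 without a library. Needles, CO2 (2 of 657) gave 1 of 442 with DESeq2 size factors, 14 of 3375 in DESeq2 and 6 of 1348 with no filter. It gave 5 of 1045 with the replicate block, 3 of 663 without low-complexity libraries and 1 to 3 without a library. Stem, nitrogen (0 of 385) gave 1 of 331 without low-complexity libraries. Stem, CO2 (0 of 0) gave 17 of 751 in DESeq2 and 4 of 53 with no filter. It gave 2 of 2 without low-complexity libraries and 0 to 2 without a library. Roots, nitrogen (0 of 25540) gave 1 of 32924 in DESeq2 and 0 to 1 without a library. Needles minus stem gave 1 of 271 in DESeq2 for nitrogen (0 of 23). For CO2 (0 of 2) it gave 18 of 1572 in DESeq2 and 3 of 107 with the pool block. It gave 2 of 15 without low-complexity libraries and 0 to 2 without a replicate. The causes were not tested. Roots had no low-complexity library to leave out.

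Sign counts, added after seeing the data, kept their side: 165 to 180 of 200 negative in stem with CO2, and 160 to 173 positive in needles minus stem. At an unadjusted p under 0.05 these were 40 to 76 lower in stem (51), and 76 without low-complexity libraries and 29 to 46 without a replicate for needles minus stem (48). The replicate numbers were not taken as pairs within an organ, since same-numbered libraries correlated over 0.1 in 5, 4 and 11 of 18 pairs in needles, stem and roots, not in all. In roots their median correlation was 0.14, against -0.12 for other pairs. Blocks changed no other count of calls. No count of calls and no named transcript reversed its direction, whereas list medians near 0 changed sign in several settings. With DESeq2 size factors they went to -0.01 in needles with CO2 (0.01) and -0.02 for the difference of CO2 responses in stem (0.03). Without low-complexity libraries the median in needles for nitrogen form went to 0.02 (-0.01). Without nitrate 400 ppm replicate 3 that for the difference in stem went to -0.07. In roots, 45 of the 200 members passed the filter on low counts.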
